A study of Mus musculus with 15 samples.

Results

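The 6 microRNAs (miRNAs) described here are the arms of 3 hairpins known from the vessel wall: mmu-miR-143-3p and mmu-miR-143-5p, mmu-miR-145a-5p and mmu-miR-145a-3p, and mmu-miR-126a-3p and mmu-miR-126a-5p. They were followed in mouse plasma during sepsis, and were found as the rows of the deposited read count table that carry these names, being 6 of 1205 rows, and all 6 were abundant enough to be among the 426 miRNAs tested. The libraries came from platelet-free plasma of male, wild-type C57BL/6J mice sampled 24 h after surgery. A sham operation was performed in 6 (sham 1 to 6), and cecal ligation and puncture (CLP), in which the gut is pierced so that its bacteria cause sepsis, in 9 (CLP 1 to 9). The labels do not state that each library is a separate mouse, so p-values here rest on the spread between libraries, which may be partly technical.

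A miRNA is cut from a hairpin precursor whose strands give a 5p and a 3p product. The miR-143 and miR-145a hairpins are processed from one primary transcript, are abundant in smooth muscle and pericytes, and are known for holding smooth muscle in its contractile state. The miR-126a hairpin is made in endothelium, lies within the gene of Egfl7, a protein that endothelium secretes, is known for supporting vascular growth factor signalling, and is also found in platelets and some blood progenitors. In plasma, more cells releasing a miRNA and more miRNA released per cell cannot be told apart, and the tissue from which a plasma miRNA came was not measured.

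On GENCODE M21 (mouse build GRCm38, the assembly also called mm10), Mir126a lies on chromosome 2 at 26591357 to 26591429, plus strand, inside Egfl7. Of 9 Egfl7 transcripts that span it, 8 hold it in an intron and 1, a retained intron transcript, in an exon. Of the 6 members, 1 (miR-126a-3p) matched a mature sequence in the RefSeq table (GRCm38.p6). Its letters and its hairpin are shown because miR-126a is the endothelial reference against which the smooth muscle pair is set; capitals mark the seed, bases 2 to 8, in the mature miRNA, and the 3p arm, bases 46 to 67, in the hairpin.
mmu-miR-126a-3p: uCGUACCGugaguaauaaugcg
Mir126a hairpin: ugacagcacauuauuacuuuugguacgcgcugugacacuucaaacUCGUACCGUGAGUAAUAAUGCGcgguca
No other of the 1738 mature entries in that table has the seed CGUACCG.

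In the same annotation Mir145a lies on chromosome 18 at 61647825 to 61647894 and Mir143 at 61649196 to 61649258, both on the minus strand and 1301 bases apart. Both lie inside the noncoding gene Carmn as RefSeq draws it (build GRCm38.p6, 61645878 to 61665538). GENCODE M21 draws Carmn from 61649625 to 61665537, and both hairpins lie outside that span.

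Values are read counts scaled to CPM (counts divided by the size of the library and multiplied by a constant), with library sizes adjusted by the trimmed mean of M values (TMM). Totals ran from 5274676 to 13576482 counts, and the smallest count behind any value of a member was 148, for miR-143-5p in sham 3. Adapter ligation favours some ends, so CPM of different miRNAs are not amounts; comparisons between groups are within a miRNA or within a ratio. Over all 426 tested miRNAs, 47.2% differed between CLP and sham at an adjusted p under 0.05 (edgeR quasi-likelihood test, Benjamini-Hochberg), 25.4% higher and 21.8% lower in CLP. With scaling by library size only, 90 of 216 calls were higher, against 108 of 201, and the median log2 fold change of all tested miRNAs moved by -0.23.

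The members of the smooth muscle cluster moved apart in septic plasma. Both arms of miR-145a were about 3 times as high in CLP as in sham, while neither arm of miR-143 passed the test. Both arms of miR-126a had lower means in CLP, at 0.75 and 0.73 times the sham level in the fit, without passing. Thus 2 of 6 members rose, beside 25.4% of all tested miRNAs, and 0 of 6 fell, beside 21.8% (edgeR; 1 member, miR-126a-5p, had an unadjusted p under 0.05 on the lower side, and under DESeq2 it passed). For none of the 6 did the 2 groups separate fully, beside 8.45% of tested miRNAs with every CLP library above every sham library and 11.3% with every CLP library below.

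miR-145a-5p is the arm usually taken as the guide strand, and targets regulators of smooth muscle phenotype such as Klf4 and Klf5. In sham the 5p arm ran from 579 CPM in sham 1 through a median of 1033 to 3026 in sham 6, and in CLP from 1416 CPM in CLP 5 through a median of 4542 to 7320 in CLP 2. Of the CLP libraries 8 of 9 lay above every sham library; CLP 5 lay within the sham range, and sham 4 and sham 6 stood above the other sham libraries. Mean levels of the sham and CLP libraries were 1515 ± 1079 CPM (SD, n = 6) and 4626 ± 1617 CPM (n = 9). The log2 fold change was 1.61 ± 0.40 (SE; edgeR adjusted p = 0.00268), a 3.05-fold rise. With the haemolysis index, log2 of the red cell miRNA miR-451a over miR-23a-3p, as a covariate, it was 1.07 (edgeR adjusted p = 0.0336). The denominator, miR-23a-3p, is itself among the other endothelial miRNAs counted below, at -0.33 ± 0.30 (SE; edgeR adjusted p = 0.382). Except in CLP 5 and CLP 6, the index was -1.46 or lower in CLP, while sham values ran from -1.28 to 0.24. The covariate thus partly overlapped with the group, and how much of the change from 1.61 was due to haemolysis was not tested. CLP 5, with the least miR-145a-5p of the CLP libraries, had the highest haemolysis index of the 15 libraries, at 0.72. With the rows of the red cell miRNAs miR-451a, miR-486 and miR-144 removed before scaling, the log2 fold change was 1.56 (edgeR adjusted p = 0.00267).

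miR-145a-3p, the other arm, took more counts than the 5p arm in all 15 libraries. It ran from 1455 CPM in sham 2 through a median of 2265 to 11437 in sham 6, and in CLP from 7874 CPM in CLP 1 through a median of 12736 to 20127 in CLP 7. All CLP libraries exceeded sham 1 to 5, and 5 of 9 also exceeded sham 6. The log2 fold change was 1.62 ± 0.42 (SE; edgeR adjusted p = 0.00354), a 3.08-fold rise, and the log2 fold change was larger, at 2.15, without sham 6. With the haemolysis index as a covariate it was 1.56 (edgeR adjusted p = 0.0156), where the 5p arm moved to 1.07. The count of miR-145a-5p was not a whole number in 8 libraries, as arises when reads are divided between similar miRNAs, and that of miR-145a-3p in 0. The related miR-145b, from another place on chromosome 18, had 0 to 3 counts in sham and 2 to 19.5 in CLP and was too scarce to test.

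miR-143-3p was the most abundant member, at rank 5 of the 426 tested miRNAs by mean CPM. In sham it ran from 13835 CPM in sham 2 through a median of 22699 to 124892 in sham 6, and in CLP from 27611 CPM in CLP 6 through a median of 35280 to 78778 in CLP 7. The sham range enclosed the whole CLP range. Sham 6 and sham 4 (51245 CPM) were the high sham libraries, and the other 4 lay below all 9 CLP libraries. The log2 fold change was -0.07 ± 0.42 (SE; 95% interval -0.97 to 0.83; edgeR adjusted p = 0.893), and 0.58 without sham 6 (edgeR adjusted p = 0.151). The sign of this value thus turned on sham 6.

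miR-143-5p, the scarce arm, ran from 22.6 CPM in sham 3 through a median of 50.7 to 189 in sham 6, and in CLP from 33.5 CPM in CLP 5 through a median of 54.2 to 92.4 in CLP 7. The groups overlapped throughout, and sham 6 was again the highest library. Its log2 fold change was -0.25 ± 0.38 (SE; edgeR adjusted p = 0.615), and 0.31 without sham 6.

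miR-126a-3p, the endothelial guide strand that targets Spred1 and Pik3r2, inhibitors of growth factor signalling, ran from 2202 CPM in sham 2 through a median of 3343 to 3640 in sham 6. In CLP it ran from 1395 CPM in CLP 2 through a median of 1973 to 3806 in CLP 9. Below every sham library lay 5 of the 9 CLP libraries, while CLP 1 (3466 CPM) and CLP 9 were among the high values of either group. The log2 fold change was -0.42 ± 0.22 (SE; edgeR adjusted p = 0.129), with a 95% interval of -0.90 to 0.07. It passed without CLP 9 (-0.53, edgeR adjusted p = 0.0400) and under 5 of 11 other settings.

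miR-126a-5p, known for maintaining endothelial proliferation, ran from 650 CPM in sham 2 through a median of 886 to 1194 in sham 6, and in CLP from 396 CPM in CLP 2 through a median of 665 to 856 in CLP 9. The 4 CLP libraries with the lowest values, CLP 2, 3, 6 and 8, lay below every sham library. The log2 fold change was -0.45 ± 0.19 (SE; edgeR adjusted p = 0.0639), and it passed under 8 of 10 other settings and on leaving out sham 2, CLP 1, CLP 7 or CLP 9 (edgeR adjusted p from 0.0281 to 0.0418). With library size scaling the median of all tested miRNAs moved as well. Relative to that median, miR-126a-3p was at -0.52 with TMM and -0.51 with library size. For miR-126a-5p these values were -0.55 and -0.53. Why the arms passed under some settings and not others was not tested.

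**Figure D1:**
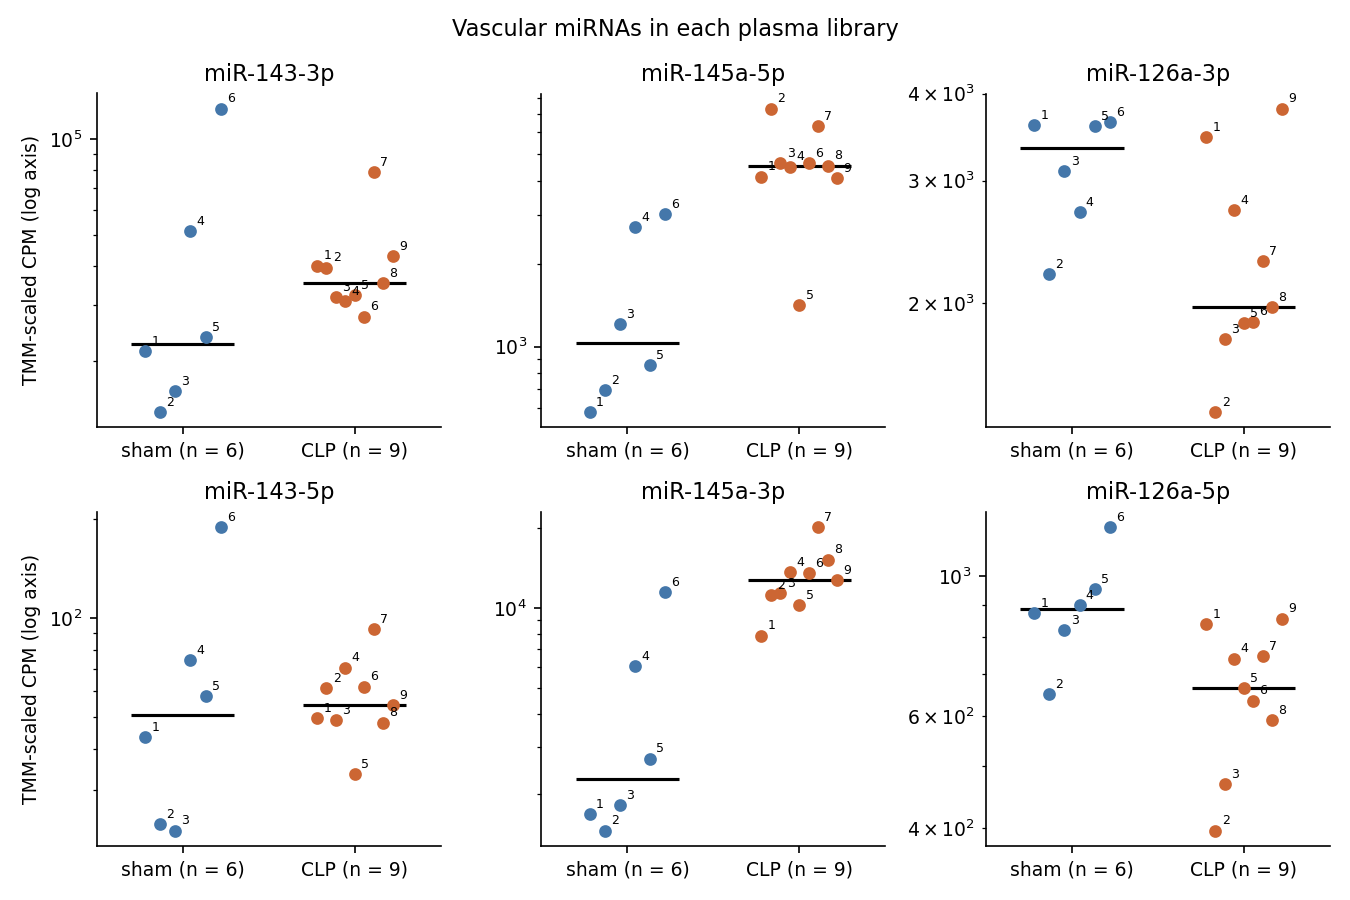
TMM-scaled CPM of each member (log axis) in 6 sham and 9 CLP libraries; each point is 1 library with its replicate number and lines are medians. The miR-145a arms are higher in CLP, overlapping sham through CLP 5 in the 5p arm and through sham 6 in the 3p arm, the miR-143 arms overlap with sham 6 on top, and the miR-126a arms lie lower in most CLP libraries.

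The ratio of members within a library does not depend on how libraries are scaled, and it tests the difference between members directly. For 3 ratios, group means were compared by an exact permutation test (two-sided), with adjustment over the 3. The share of other miRNA ratios that pass this test or separate was not computed. The p-values and counts of libraries for these 3 thus have no background share beside them. Within the cluster, miR-145a-5p over miR-143-3p ran on the log2 scale from -5.37 in sham 6 through a median of -4.56 to -3.74 in sham 3, and in CLP from -4.51 in CLP 5 through a median of -2.96 to -2.43 in CLP 2. Again 8 of 9 CLP libraries were above every sham library, with CLP 5 the exception. The ratio rose by 1.46 ± 0.33 on the log2 scale (SE, 6 and 9 libraries; exact permutation p = 0.0016, adjusted 0.0024), which is 2.76-fold.

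Sham 6, the highest sham library in both miR-143-3p and miR-145a-5p, had the lowest value of this ratio among the 15 libraries, so its excess over the other sham libraries was larger for miR-143-3p. The ratio of the other miR-145a arm to miR-143-3p was looked up after the values were seen and was not tested. It ran from -3.68 to -3.09 in sham and from -2.34 to -1.03 in CLP, without overlap, with means of -3.29 ± 0.23 (SD, n = 6) and -1.60 ± 0.42 (n = 9). How often ratios of other tested miRNAs separate in this way was not computed, so this lack of overlap has no background share beside it. Sham 4 and sham 6, high in both miRNAs, had ratios of -3.09 and -3.45, inside the range of the other sham libraries or next to it, and the mean ratio in CLP was 3.22-fold that in sham.

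Set against the endothelial hairpin, miR-145a-5p over miR-126a-3p ran from -2.64 in sham 1 through a median of -1.51 to 0.01 in sham 4, and in CLP from -0.40 in CLP 5 through a median of 1.20 to 2.39 in CLP 2. CLP libraries above every sham library numbered 8 of 9. The ratio rose by 2.27 ± 0.51 (SE; exact permutation p = 0.000999, adjusted 0.0024), which is 4.81-fold. By contrast, miR-143-3p over miR-126a-3p ran from 2.38 in sham 3 through a median of 2.69 to 5.10 in sham 6, and in CLP from 3.50 in CLP 9 through a median of 4.11 to 5.10 in CLP 7. Its rise of 0.80 ± 0.49 did not pass (exact permutation p = 0.0907, adjusted 0.0907). Without sham 6 it was 1.17 and passed (exact permutation, adjusted p = 0.00799).

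**Figure D2:**
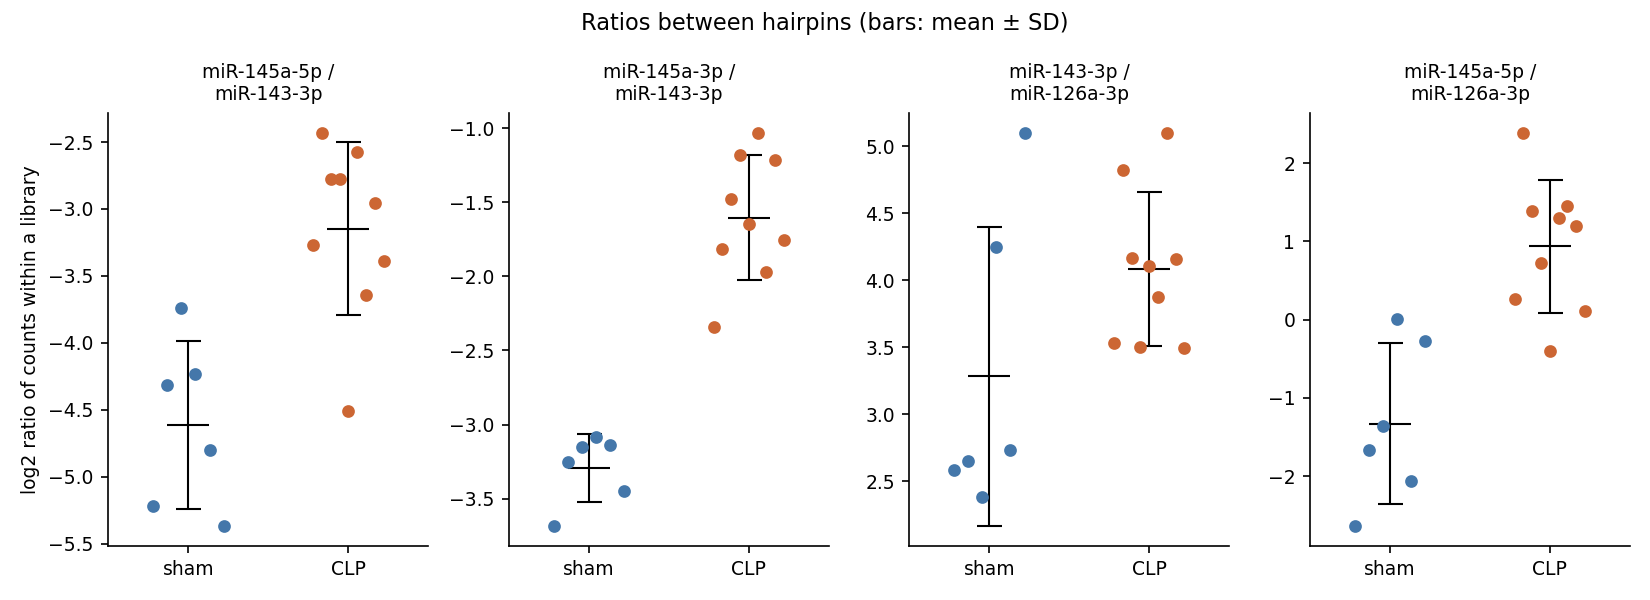
Log2 ratio of counts within each library for 4 pairs of members; points are libraries and bars are mean ± SD (6 sham, 9 CLP). The ratio of miR-145a-3p to miR-143-3p, picked after the values were seen and not tested, does not overlap between groups. That of miR-145a-5p to either partner overlaps through CLP 5, and miR-143-3p over miR-126a-3p overlaps through sham 4 and sham 6.

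No difference in the proportion of the arms passed for any of the 3 hairpins. Over the 93 hairpins with both arms tested, the log2 ratio of the arms differed between CLP and sham in 50.5% (limma, Benjamini-Hochberg), 22.6% towards the 3p arm and 28.0% towards the 5p arm, and 0 of the 3 member hairpins were among them (0 also at an unadjusted limma p under 0.05 and by exact permutation). The mean log2 ratio of miR-126a-3p over miR-126a-5p stood at 1.81 ± 0.18 in the 6 sham libraries and 1.80 ± 0.22 in the 9 CLP libraries (SD). The difference of -0.0018 ± 0.17 (SE; 95% interval -0.37 to 0.36; limma adjusted p = 0.991) was the smallest in size of the 93. For miR-143-3p over miR-143-5p the difference was 0.23 ± 0.22 (interval -0.25 to 0.71; limma adjusted p = 0.424). For miR-145a-5p over miR-145a-3p it was -0.22 ± 0.30 (interval -0.88 to 0.43; limma adjusted p = 0.566). These ranked 77 and 78 of 93 by size, against a median absolute difference of 0.86 over all hairpins.

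**Figure D3:**
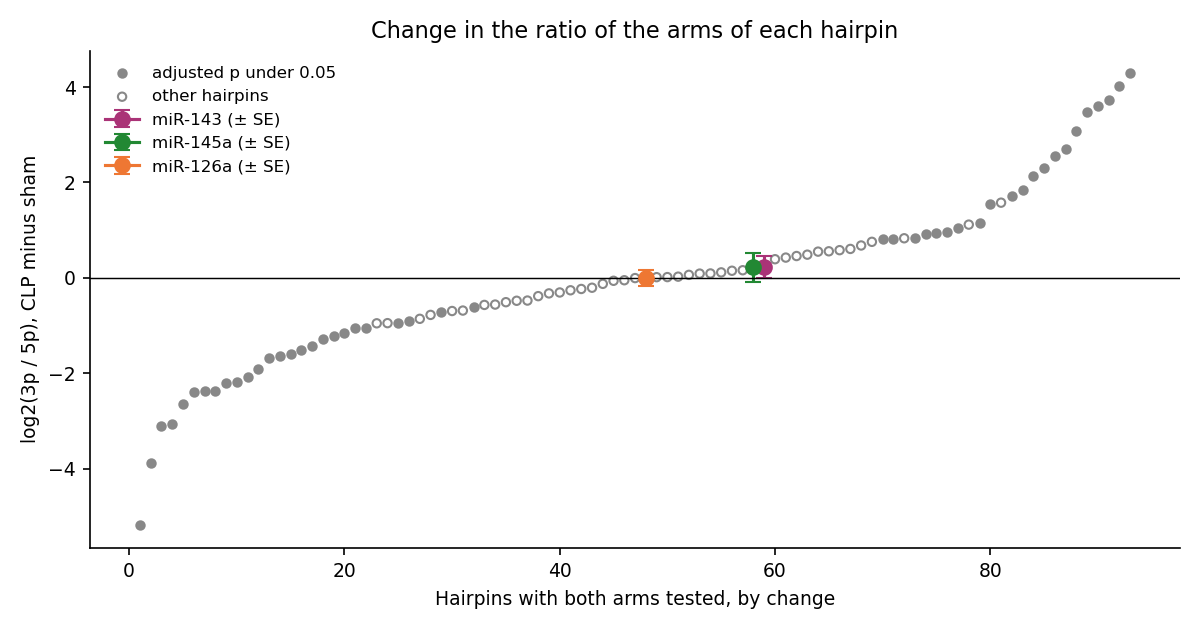
Change in log2(3p/5p) between CLP and sham for the 93 hairpins with both arms tested, in order of change; filled points have a limma adjusted p under 0.05 and coloured points with SE bars are the member hairpins. The 3 member hairpins sit near 0, where miR-126a has the smallest change of the 93.

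Variation among libraries of one group was followed in 4 pairs of members within each group, 8 relations in all, on log2 CPM with exact permutation p-values adjusted over the 8. The arms of miR-126a rose and fell together among the 9 CLP libraries (Pearson r = 0.89, exact permutation p = 0.00161, adjusted 0.0129; Spearman rho = 0.92, p = 0.00131, adjusted 0.0105). Leaving out the libraries farthest from the median, CLP 9 and CLP 1, gave r = 0.88. In sham the same pair had r = 0.80 (exact permutation p = 0.0611, adjusted 0.163; rho = 0.71, p = 0.136, adjusted 0.295), and 0.64 without sham 2 and sham 4.

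In sham, r was 0.85 for miR-143-3p with miR-145a-5p (exact permutation p = 0.0347, adjusted 0.139; rho = 0.71, p = 0.136, adjusted 0.295). It rested on sham 6 and sham 4, without which r was -0.20. Among CLP libraries it was 0.37 (exact permutation p = 0.220, adjusted 0.439; rho = 0.03, p = 0.948, adjusted 0.948), and 0.35 without CLP 7 and CLP 6. Neither smooth muscle miRNA was related to miR-126a-3p in a way that passed. For miR-143-3p with miR-126a-3p, r was 0.40 in sham (exact permutation p = 0.446, adjusted 0.713; rho = 0.60, p = 0.242, adjusted 0.387) and 0.91 in the 4 libraries left without sham 6 and sham 4. In CLP it was 0.23 (exact permutation p = 0.574, adjusted 0.766; rho = 0.40, p = 0.291, adjusted 0.388), and 0.41 without CLP 7 and CLP 6. For miR-145a-5p with miR-126a-3p, r was 0.09 in sham (exact permutation p = 0.885, adjusted 0.885; rho = 0.20, p = 0.714, adjusted 0.816), and 0.04 without sham 6 and sham 4. In CLP it was -0.09 (exact permutation p = 0.804, adjusted 0.885; rho = -0.53, p = 0.148, adjusted 0.295), and -0.43 without CLP 5 and CLP 2.

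**Figure D4:**
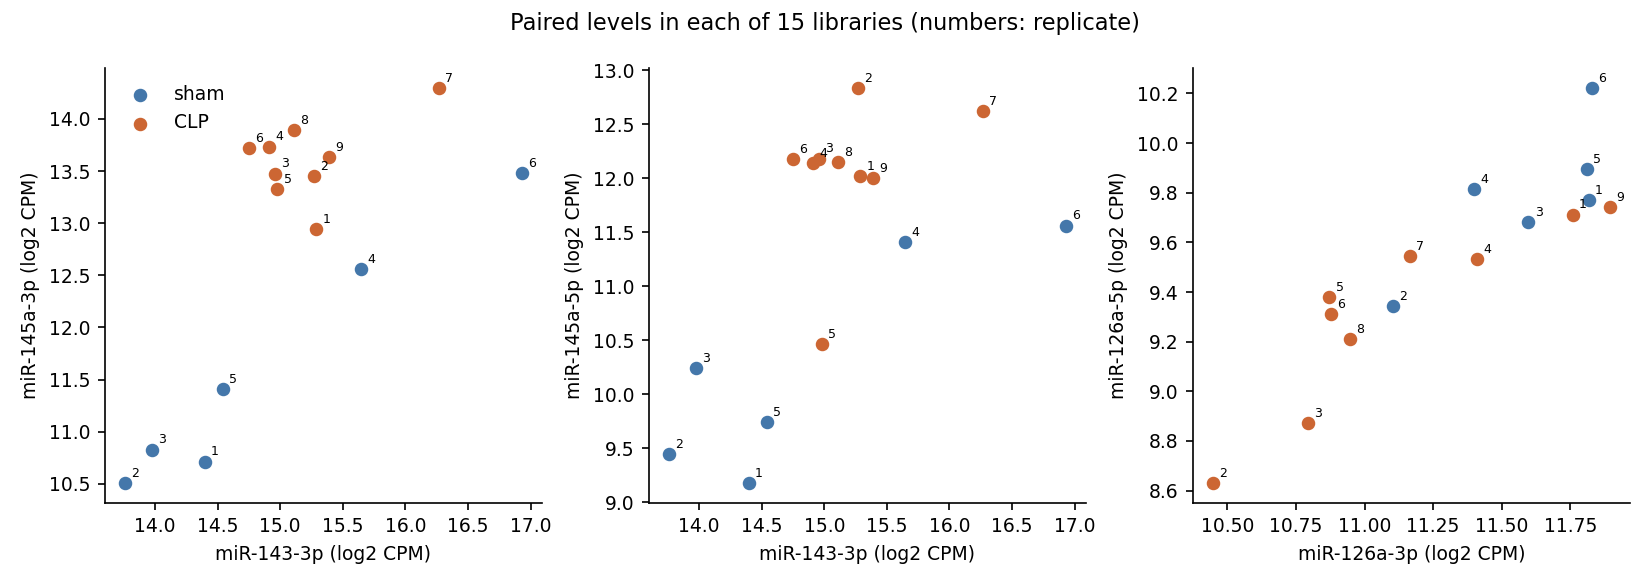
Log2 CPM of pairs of members in each of 15 libraries, labelled by replicate number. In the left plot, a pair picked after the values were seen and not tested, miR-145a-3p is higher in CLP than in sham libraries of similar miR-143-3p. In the right plot the arms of miR-126a rise together, a relation that passed in CLP and not in sham. No line was fitted.

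With each group's mean removed, the 3 most similar of 243 miRNAs averaging 10 CPM or more were picked for each main arm by Pearson r over the 15 libraries, as a description that shares library scaling and composition. For miR-143-3p they were miR-490-3p (r = 0.84), miR-27b-3p (0.84) and miR-28a-3p (0.82). For miR-145a-5p they were miR-28a-3p (0.78), miR-24-3p (0.74) and miR-10b-5p (0.72). For miR-126a-3p they were miR-101a-3p (0.81), the row shared by miR-101a-3p and miR-101c (0.74), and miR-339-5p (0.70). Between groups the neighbours of miR-143-3p did not all do as it did: miR-28a-3p rose by 2.06 ± 0.21 (SE; edgeR adjusted p = 4.03e-07), and miR-490-3p was at 0.68 ± 0.42 (edgeR adjusted p = 0.184). Among the members themselves, miR-143-3p had r = 0.90 with miR-145a-3p and 0.90 with its own 5p arm on this scale. Sham 6 and sham 4 were the highest sham libraries in these 3 members, so these r may rest on them. No r on this scale, for members or neighbours, was computed without these libraries or within a single group.

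Other vessel miRNAs went both ways, and their counts stand beside 25.4% of all tested miRNAs higher and 21.8% lower in CLP. Of 12 other endothelial names 10 had a row and were tested, and 1 rose and 1 fell; their median log2 fold change was 0.08, against 0.11 over all tested miRNAs. The member that rose was miR-24-3p, an inhibitor of endothelial Gata2 (0.84 ± 0.19, SE; edgeR adjusted p = 0.00111), and the one that fell was miR-139-3p (-1.66 ± 0.28, edgeR adjusted p = 0.000126). Of 11 tested miRNAs known from smooth muscle phenotype other than the members, 4 rose and 4 fell, with a median of 0.41. Those that rose were miR-21a-5p, raised in proliferating smooth muscle (1.28 ± 0.23), miR-25-3p (1.17 ± 0.27), miR-10a-5p (1.14 ± 0.21) and miR-221-3p, a promoter of smooth muscle proliferation (1.06 ± 0.20). Those that fell were miR-204-5p (-1.88 ± 0.23), miR-182-5p (-1.88 ± 0.25), miR-222-3p (-1.24 ± 0.18) and miR-26a-5p (-0.83 ± 0.20). The edgeR adjusted p of these 8 ran from 3.11e-06 for miR-204-5p to 0.0025 for miR-26a-5p.

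**Figure D5:**
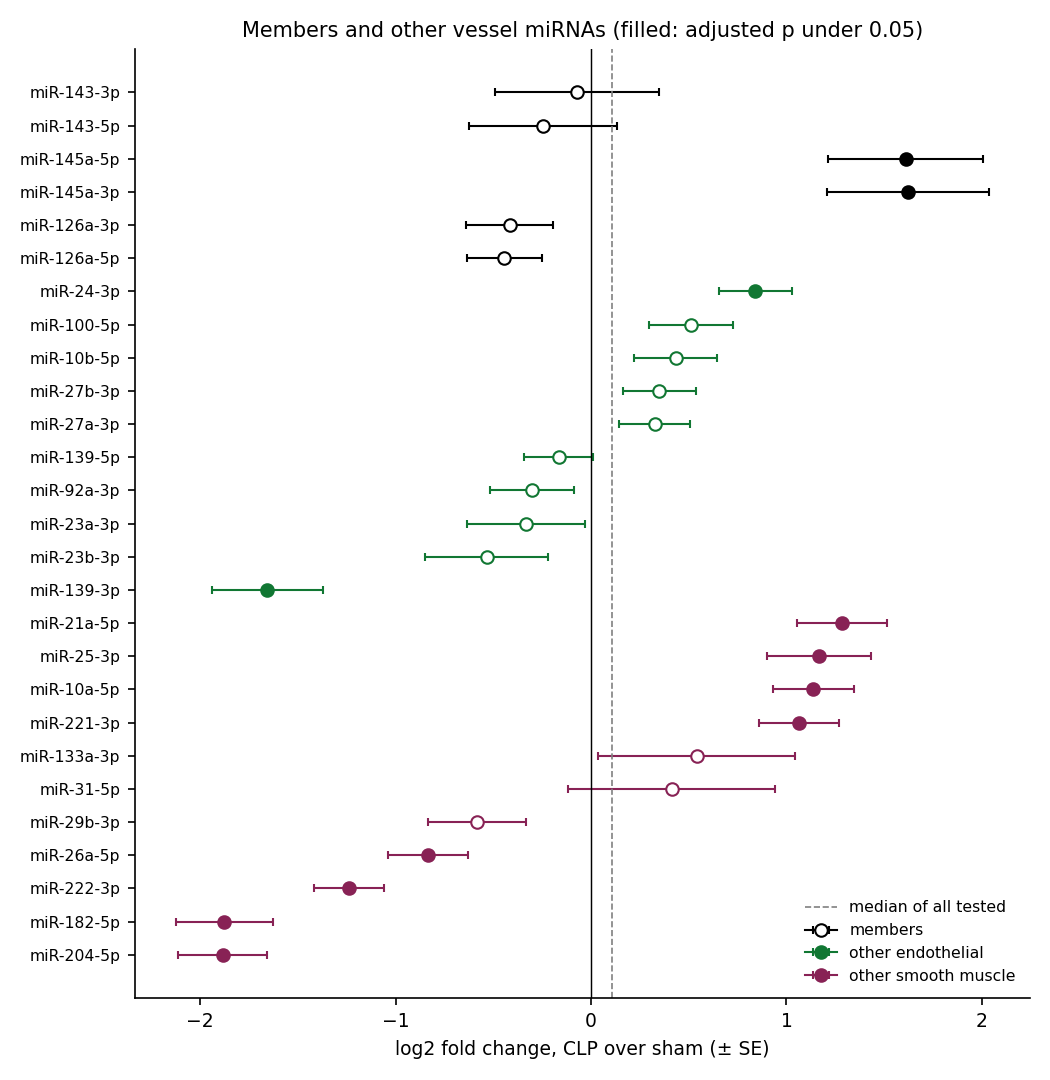
Log2 fold change of CLP over sham (± SE, edgeR) for the 6 members and the tested miRNAs of the other endothelial and smooth muscle lists; filled points have an adjusted p under 0.05 and the dashed line is the median of all tested miRNAs, 0.11. The miR-145a arms, at 1.61 and 1.62, have the highest point values shown, and their differences from the other vessel miRNAs were not tested.

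Some miRNAs known from other cells also differed, against the same background of 25.4% higher and 21.8% lower, and beyond the red cell settings above their part in the results was not tested. Of 4 tested platelet miRNAs 1 rose and 2 fell, and the 1 that rose was miR-24-3p, already counted above as the endothelial miRNA that rose. The summed level of the 4 ran from 41196 to 57160 CPM in sham and from 21226 to 31503 in CLP. Of this, miR-191-5p made up 37336 CPM on average in sham and 5449 in CLP. Another platelet miRNA, miR-223-3p, was at 0.36 ± 0.21 (SE; edgeR adjusted p = 0.157). Of 5 tested red cell miRNAs 0 rose and 1, miR-451a, fell (-1.28 ± 0.32, edgeR adjusted p = 0.00313), with sums of 158587 to 457269 CPM in sham and 82872 to 380175 in CLP. Of 7 tested striated muscle miRNAs 4 rose and 0 fell, with sums of 482 to 7252 CPM in sham and 5021 to 40706 in CLP. In the muscle list miR-208b-3p was at 0 in 5 sham libraries and miR-499-5p in 1, and no other tested marker of these lists was at 0 in any library.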

How the data were processed

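Per the labels' protocols, plasma was cleared of cells and platelets by spins at 1000 and 10000 xg, RNA was taken from 100 ul with Trizol LS, and libraries were made by adapter ligation with a Norgen Biotek kit. The authors deposited 1 table of expected counts per mature miRNA, not scaled for depth, named after the exceRpt pipeline; 4.56% of entries were not whole. Per the submitters' processing notes the genome was mm10; the aligner, the trimming and the release of miRNA names are not given in the sources used here. Counts were rounded, kept by filterByExpr (426 of 1205 rows), scaled by TMM and tested with edgeR 4.0.16 (robust quasi-likelihood, two-sided, no covariate) in R 4.3.3, with Benjamini-Hochberg adjustment over 426. SE is the size of the log2 fold change over the square root of F, and intervals use 13 degrees of freedom. Arm ratios (0.5 counts added) were tested with limma 3.58.1 over 93 hairpins. DESeq2 1.42.0 was an alternative. Fits were tested on simulated data.

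Members and lists were chosen with earlier results of these data known. Named were all members, vessel list members past the threshold at a mean of at least 10 CPM, and the 3 most similar miRNAs of each main arm. The arms of miR-126b (endothelial list) and miR-197-3p (platelet list) had no row under these names and so were not analysed. At these counts, sampling error is small beside the spread between libraries; PCR reads without molecular identifiers are not independent molecules.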

Additional observations from a re-analysis of the deposited data

Results flagged for a closer look

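In 24 groups of values (6 members and 6 ratios, in sham and in CLP), 3 held 1 library far from the rest by Dixon's test; chance gives about 1 in 20. miR-143-3p was at 16.27 log2 CPM in CLP 7, where the next CLP library was at 15.39. miR-145a-5p was at 10.47 log2 CPM in CLP 5, 1.53 below the next CLP library. In the same library the log2 ratio of miR-145a-5p over miR-145a-3p was -2.86, where the next lowest was -1.74. Thus CLP 5 stood apart from the other CLP libraries in the 5p arm of miR-145a. In the 3p arm it was not flagged, though at 10279 CPM only CLP 1 (7874 CPM) of the CLP libraries was lower.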

How the results depend on the processing

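Both miR-145a arms passed on leaving out any 1 library and under all 10 other settings, with log2 fold changes of 1.07 to 1.99 for miR-145a-5p and 1.38 to 2.18 for miR-145a-3p over all of these. The ratios of miR-145a-5p to miR-143-3p and to miR-126a-3p passed on leaving out any 1 library and under both other settings tried, a pseudocount of 5 and the replicate block (exact permutation and sign-flip tests; adjusted p at most 0.0469). The block pairs libraries by replicate number alone, a pairing the labels do not state. Its exact sign-flip p of 0.03125 for both ratios is the smallest that 6 pairs can give. Left out 1 at a time, libraries moved miR-143-3p between -0.34 (without CLP 7) and 0.58 (without sham 6), miR-143-5p between -0.45 and 0.31, miR-126a-3p between -0.53 and -0.36, miR-126a-5p between -0.56 and -0.40, the ratio of the miR-126a arms between -0.046 and 0.046, and miR-143-3p over miR-126a-3p between 0.62 and 1.17. With limma voom miR-143-3p was at 0.41 and miR-143-5p at 0.22, neither passing, and with the replicate block miR-143-3p was at 0.13.

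miR-126a-3p passed with library size scaling (-0.63), limma voom (-0.51), a stricter filter (-0.55), the replicate block (-0.63) and the GC trend removed (-0.66). miR-126a-5p passed with DESeq2 size factors (-0.51), DESeq2 (-0.51), library size scaling (-0.65), limma voom (-0.48), a stricter filter (-0.56), the replicate block (-0.61), the same 12 libraries without the block (-0.58) and red cell miRNAs removed (-0.50). The cause was not tested. With no filter 307 miRNAs passed, against 201. In sham, r of miR-145a-5p with miR-126a-3p was -0.045 with library size. The GC trend could be removed for 1 member only, since 373 of 426 tested miRNAs, and 1 of 6 members, had a sequence. The labels do not say whether same-numbered libraries share anything beyond the number. The deviations of all 6 pairs correlated weakly and negatively (-0.15 to -0.03), which cannot settle whether they were paired. With the block 152 miRNAs passed.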
